A study of Drosophila melanogaster with 3 samples.

Results

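The genes described here are the 4 gene families with which Drosophila melanogaster detects chemicals in its surroundings: the odorant receptors (Or), the gustatory receptors (Gr), the ionotropic receptors (Ir) and the odorant-binding proteins (Obp). A gene was a member when the annotation called it protein-coding and its symbol was Or, Gr, Ir or Obp followed by a digit. That rule took 230 of 13968 protein-coding genes: 59 Or, 60 Gr, 60 Ir and 51 Obp genes. It used names only and no measured value. The rule leaves out genes with other names, among them Orco, the co-receptor of the Or proteins, and it leaves out 7 family pseudogenes. The question was whether the transcription factor slouch (slou) occupied these genes in the embryo.

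Or and Gr proteins are related membrane proteins that form ligand-gated ion channels, Or proteins together with Orco in olfactory neurons and Gr proteins in taste neurons. Ir proteins descend from synaptic glutamate receptors and work with broadly expressed co-receptors such as Ir8a, Ir25a, Ir76b and Ir93a. Obp proteins are small secreted proteins of the fluid around the sensory dendrites. Most of these genes are expressed in few cells of the larval and adult sense organs, and many lie in arrays of copies. Slou is a homeodomain protein of the NK class, known in the embryo from founder cells of a subset of body wall muscles and from neurons.

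ChIP-seq, the sequencing of DNA that is precipitated with a chromatin protein, was done on whole embryos of mixed sex, collected over 0 to 24 h. They came from 1 transgenic line that carries slou fused at its C-terminus to eGFP, and an anti-GFP antibody was used on sonicated chromatin. The 3 samples were biological replicates of this 1 group, and no control library was among them, so no groups were compared and no test was made. A peak in whole embryos does not tell how many cells carried the protein: binding in few cells and weak binding in many cannot be told apart.

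The authors deposited a list of 30000 peaks for each replicate and for the replicates pooled, each ordered here by the authors' score (rank 1 is the highest), and an optimal list of 2743 peaks that passed their reproducibility threshold. The optimal peaks were ranks 1 to 2743 of the pooled list. The remaining peaks of these long lists include background by design. A gene was called bound when the summit of an optimal peak lay in its body or within 1 kb upstream, a stretch called its window. Read depth is not in the files used, so the depth behind each peak is unknown. Intervals for shares are 95% Wilson intervals over genes. They cover counting error only, and genes of 1 array are not independent.

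Few of these genes were bound: 2 of 230 members, Gr32a and Ir60b, or 0.870% (0.239 to 3.11%), beside 19.7% of all protein-coding genes. Of the other 13738 protein-coding genes, 2746 were bound, or 19.99% (19.3 to 20.7%). No Or gene and no Obp gene was bound. For 0 of 59 Or genes the interval reaches up to 6.11%, and for 0 of 51 Obp genes up to 7.00%. A limit of 3 counts of the total gives 5.08 and 5.88%. Among the Gr genes 1 of 60 was bound and among the Ir genes 1 of 60, in each case 1.67% (0.295 to 8.86%). The remaining 228 members were unbound.

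Sequences under member peaks near the threshold of the optimal list are shown first, since they carry sites on which the counts turn. Those of Ir60b, Gr64a and Ir60e, whose windows overlap annotated untranslated regions, are not shown. Gr32a encodes a receptor of bitter-sensing neurons that is also known for its part in male courtship and aggression. Its optimal peak covered 2L:11113068-11113457 (build dm6), upstream of the gene body at 2L:11114014-11115823 on the plus strand. The plus strand of 300 bases around the summit, 2L:11113113-11113412, is given from the Release 6 genome. For 3 of the 5 unbound members nearest to the threshold, 101 bases centred on the summit are given in the same way: for Or88a, a receptor of trichoid olfactory neurons that respond to odours of other flies, 3R:14108792-14108892; for Obp99b, 3R:29717112-29717212; and for Gr23a, 2L:2669150-2669250. Capitals mark the homeodomain core TAATTA and the related core TAATTG, which reads CAATTA on the other strand. The printed windows hold no annotated untranslated region.
Gr32a: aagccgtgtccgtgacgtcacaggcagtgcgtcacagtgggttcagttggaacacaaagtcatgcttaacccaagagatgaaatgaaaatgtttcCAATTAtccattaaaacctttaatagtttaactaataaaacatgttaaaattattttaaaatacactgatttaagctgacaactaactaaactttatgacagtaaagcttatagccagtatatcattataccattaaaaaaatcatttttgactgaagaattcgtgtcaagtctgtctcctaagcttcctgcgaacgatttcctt
Or88a: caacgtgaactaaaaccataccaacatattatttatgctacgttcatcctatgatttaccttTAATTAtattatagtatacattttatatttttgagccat
Obp99b: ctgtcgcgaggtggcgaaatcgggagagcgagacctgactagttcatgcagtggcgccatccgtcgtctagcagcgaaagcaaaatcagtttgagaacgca
Gr23a: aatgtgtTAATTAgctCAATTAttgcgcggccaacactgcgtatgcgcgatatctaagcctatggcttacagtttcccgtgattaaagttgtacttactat

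Within 50 bp of the Gr32a summit, 79.2% of the bases were A or T, and neither core was present. One related core lay farther out in the printed sequence. The Or88a window held TAATTA once. The Gr23a window held each core once. The Obp99b window held neither, and 44.6% of its bases were A or T. Of the windows not shown, those of Ir60b and Gr64a held the related core within 50 bp of the summit and not TAATTA, and that of Ir60e held neither. A and T made up 65.3% of the bases at Ir60b, 67.3% at Gr64a and 50.5% at Ir60e.

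The Gr32a peak was the member peak closest to the threshold from inside, at pooled rank 2686, with a score of 93.1 beside a lowest optimal score of 92.0 and a median optimal score of 136. Its deposited −log10 q was 2.50. The summit lay 751 bp upstream of the Gr32a transcription start site (TSS) and 202 bp from the start of Idua, which is transcribed away from Gr32a and encodes a lysosomal glycosidase. In the replicate lists the best overlapping peak had rank 4094 in replicate 1, 2205 in replicate 2 and 4096 in replicate 3, with scores of 28.3, 36.3 and 26.0. Only replicate 2 placed it among its 2743 highest-scoring peaks, and in all 3 replicates the peak's summit was nearer to Idua than to Gr32a, at 202, 358 and 144 bp from the Idua start.

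Ir60b, a receptor of a pharyngeal taste neuron known to limit sugar feeding, was the other bound member. Its body is 2R:24515685-24517458 on the plus strand, and the peak covered 2R:24515173-24515562 at pooled rank 2165, with a score of 106 and a −log10 q of 2.79. The summit lay 317 bp upstream of the Ir60b start and 48 bp from a start of Letm1, which is transcribed away from Ir60b and encodes a mitochondrial inner membrane protein. The replicate ranks were 2108, 2712 and 3873, with scores of 38.4, 31.8 and 26.8. Replicates 1 and 2 had the peak among their 2743 highest-scoring peaks and replicate 3 did not. In all 3 replicates the summit was at most 62 bp from a Letm1 start.

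Both bound members thus shared their peak with a gene of another function that starts on the opposite strand between 48 and 202 bp from the summit. Ir60b was the only member with an optimal summit within 500 bp of an own TSS, 0.435% of members (0.0768 to 2.42%), where 15.1% of all protein-coding genes had one. No optimal summit lay inside the body of any member.

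**Figure D1:**
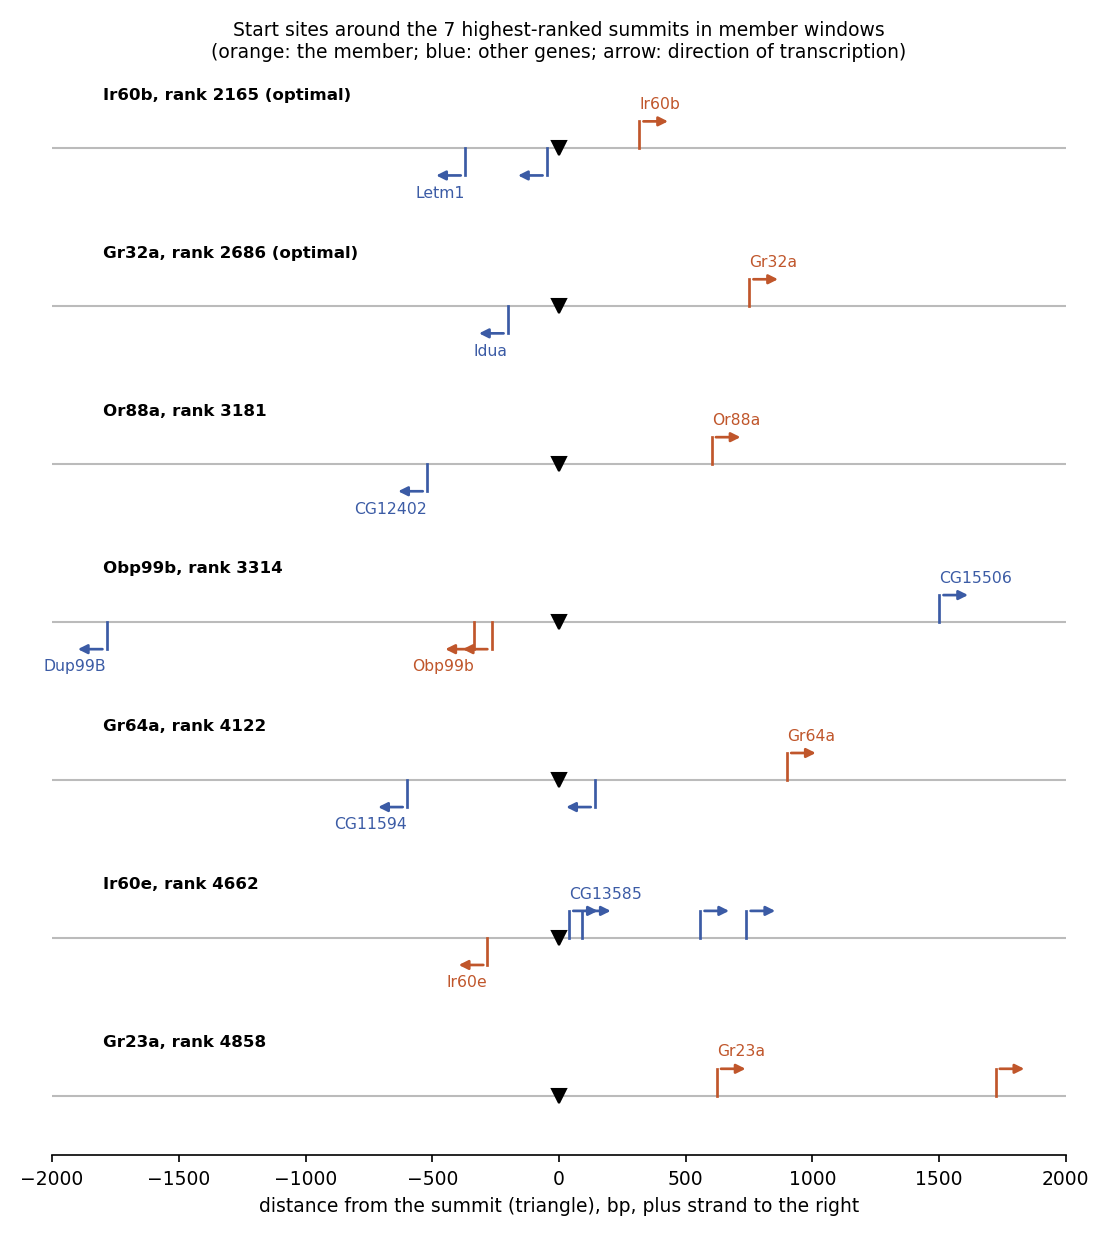
Annotated start sites of protein-coding genes around the 7 highest-ranked summits in member windows, by distance from the summit in bp (triangle at 0), orange for the member and blue for other genes. At Ir60b, Gr32a, Or88a, Gr64a and Ir60e a start of another gene is nearer to the summit than the member's own, while at Obp99b and Gr23a the member's own start is nearest.

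The map of start sites also shows the 5 members just outside the optimal list, given here as a description of the threshold. Or88a had rank 3181 with a score of 83.5, and Obp99b rank 3314 with 81.6. Gr64a, one of the sugar receptors, had rank 4122 with 71.7. Ir60e had rank 4662 with 66.8, and Gr23a rank 4858 with 65.1. Together with Gr32a and Ir60b these 7 were the only members with a summit among the 5486 highest-scoring pooled peaks.

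These 5 differed in how alike the replicates were. Or88a had replicate ranks of 3976, 3668 and 5366, and Obp99b of 3178, 4039 and 4153, so both stayed within the highest 5486 peaks of every replicate, as did Gr32a and Ir60b. The other 3 had at least 1 replicate far below. Gr64a had ranks of 2999, 8211 and 7308, and Ir60e had ranks of 23280, 5620 and 2189. Gr23a had ranks of 3738 and 7323 in replicates 1 and 2 and no overlapping peak in replicate 3.

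Position relative to neighbours also varied among these 5. The Obp99b summit lay 266 bp upstream of its own start, and the nearest start of another gene, CG15506, was 1501 bp away. The Gr23a summit was 623 bp upstream of its own start and 4138 bp from the start of Trf4. In contrast, the Ir60e summit was 40 bp from a start of CG13585 and 282 bp from its own. The Gr64a summit was 142 bp from a start of CG11594 and 900 bp from its own. The Or88a summit lay about midway, 521 bp from CG12402 and 603 bp from its own start.

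In the long pooled list, background peaks included, 76 of 230 members had a summit in their window, or 33.0% (27.3 to 39.4%), beside 63.7% of the other genes. By family these were 18 Or genes (30.5%), 17 Gr genes (28.3%), 22 Ir genes (36.7%) and 19 Obp genes (37.3%), and the intervals of the 4 families overlapped. The other 154 members held no summit of any of the 30000 peaks. The gap to other genes varied with window length. In windows up to 2233 bp, 37.9% of members and 40.8% of the other genes had a pooled summit. From 2233 to 2498.5 bp it was 24.6 and 56.9%, from 2498.5 to 2907 bp 31.6 and 57.0%, and from 2907 to 20000 bp 35.7 and 73.5%. Of the 76 members with a pooled summit 2 were bound, or 2.63% (0.725 to 9.10%), where 31.1% of all protein-coding genes with a pooled summit were bound.

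The peaks that members did have ranked low. The median best rank was 23241 for Or genes, 15988 for Gr genes, 20564 for Ir genes and 16349 for Obp genes, and 5724 for the other genes with a pooled summit. For 49 of the 76 members (64.5%) even the best peak ranked below 15000, beside 21.7% of the other genes. Genes with long windows collect more peaks, so a longer window gives a better best rank by itself.

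**Figure D2:**
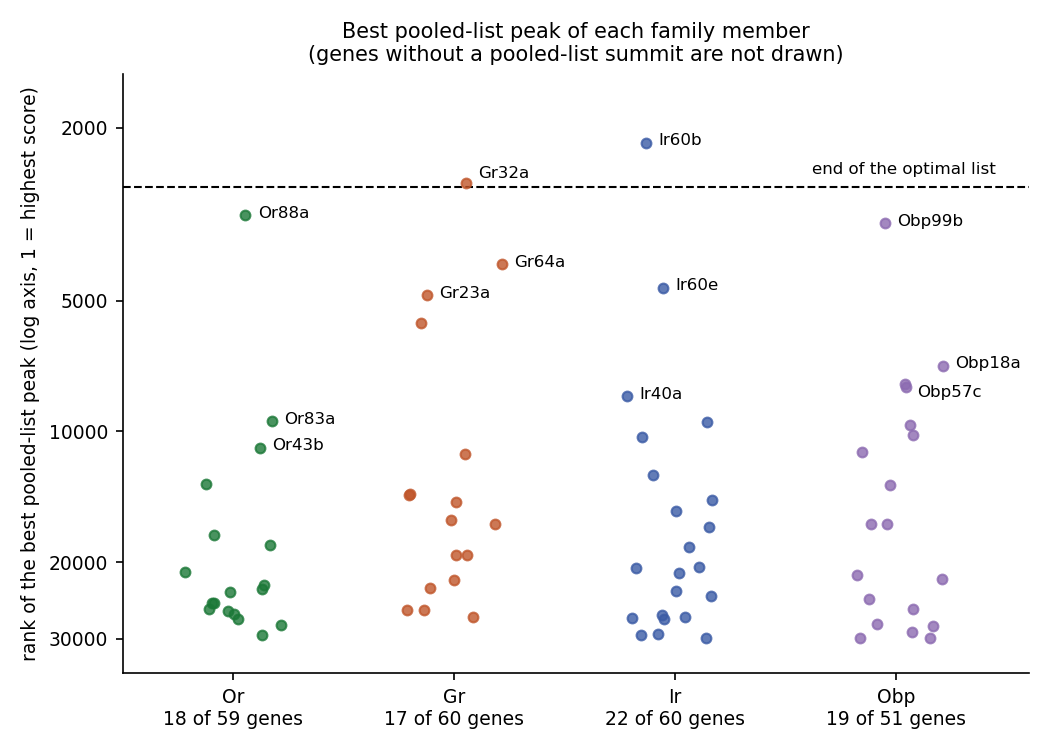
Rank of the best pooled-list peak of each member with a summit in its window, by family, on a log axis with rank 1 as the highest score (each point is 1 gene, the dashed line is rank 2743). Only Ir60b and Gr32a lie above the line, and most points of every family lie below rank 10000.

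The plot of best ranks shows how few genes of each family lie near its top. After Or88a, the next Or gene was Or83a at rank 9467, followed by Or43b, a receptor for fruit esters, at 10911 and Or63a at 13242. Gr39b followed Gr23a at rank 5630. Among the Ir genes, Ir40a, a receptor subunit for dry air, had rank 8300 and the co-receptor Ir25a rank 9516. After Obp99b came Obp18a at rank 7067, Obp57c at 7791 and Obp47b at 7913. The scores in this group ran from 59.96 for Gr39b down to 40.4 for Or63a, all above the pooled median of 38.3. Their support varied: the Ir25a summit, 80 bp upstream of its own start, matched a peak in replicate 3 alone, at rank 8443, and Obp18a one in replicate 1 alone, at rank 3924.

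The receptors best known for a single cue or for a shared function had no optimal summit either, apart from Gr32a. Of the 4 Ir co-receptors, Ir76b had no pooled summit, Ir8a had its best at rank 23893 and Ir93a at rank 15266. Gr21a and Gr63a, which together detect carbon dioxide, had none. Of the bitter receptors, Gr33a and Gr66a had none. Of the 9 sugar receptors 2 had a pooled summit: Gr64a and Gr5a, a trehalose receptor, whose summit at rank 16311 was 214 bp from the start of Tre1 and 426 bp from its own. Gr43a, the fructose receptor, Gr61a and Gr64b to Gr64f had none. Or67d, the receptor for a male pheromone, had rank 29448 and Or56a, the receptor for geosmin, rank 24831.

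The members and related genes were also grouped by stage or organ of use, in short lists given with their Wilson intervals, beside 19.7% of all protein-coding genes. Of 25 receptors known from larval olfactory neurons 7 had a pooled summit and 0 were bound (0 to 13.3%). Of 16 antennal ionotropic receptors 11 had a pooled summit and 0 were bound (0 to 19.4%), with a median window of 4596.5 bp, longer than the 2908 bp of all Ir genes. Of the 9 sugar receptors 0 were bound (0 to 29.9%). Of 13 synaptic glutamate receptor genes, relatives of the Ir genes, 8 had a pooled summit and 0 were bound (0 to 22.8%). The intervals of the sugar and glutamate receptors include the share of all genes. Of 10 other chemosensory genes only ppk29, a channel subunit of pheromone-sensing neurons, was bound (10%, 1.79 to 40.4%), by a peak at rank 896 whose summit was 15 bp from the start of eEF5. Orco had its best summit 166 bp from its own start at rank 7139. Of 15 transcription factors of chemosensory neurons 2 were bound (13.3%, 3.74 to 37.9%), pros and fru, whose windows are 80148 and 132314 bp long. The pros summit, at rank 1775, lay in a 3′ UTR 20210 bp from an own start. The better fru summit, at rank 1637, lay in an intron 718 bp from an own start, and no peak of replicate 2 overlapped its peak. The intervals of these last lists also include 19.7%.

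Members are short genes, so they were also set beside other genes in classes of window length, cut at the members' quartiles. The median window was 2498.5 bp for members and 3190 bp for the other genes. In the shortest class, 1168 to 2233 bp, 0 of 58 members and 313 of 3688 other genes (8.49%) were bound. From 2233 to 2498.5 bp it was 0 of 57 members and 157 of 990 others (15.9%). From 2498.5 to 2907 bp, which holds Gr32a and Ir60b, it was 2 of 57 members (3.51%) and 217 of 1386 others (15.7%). From 2907 to 20000 bp it was 0 of 56 members and 1605 of 6592 others (24.3%). Only Ir40a and Ir41a had longer windows and neither was bound, although the window of Ir41a, a receptor subunit for polyamines, is 105437 bp long and held 8 pooled summits, the best at rank 12612.

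**Figure D3:**
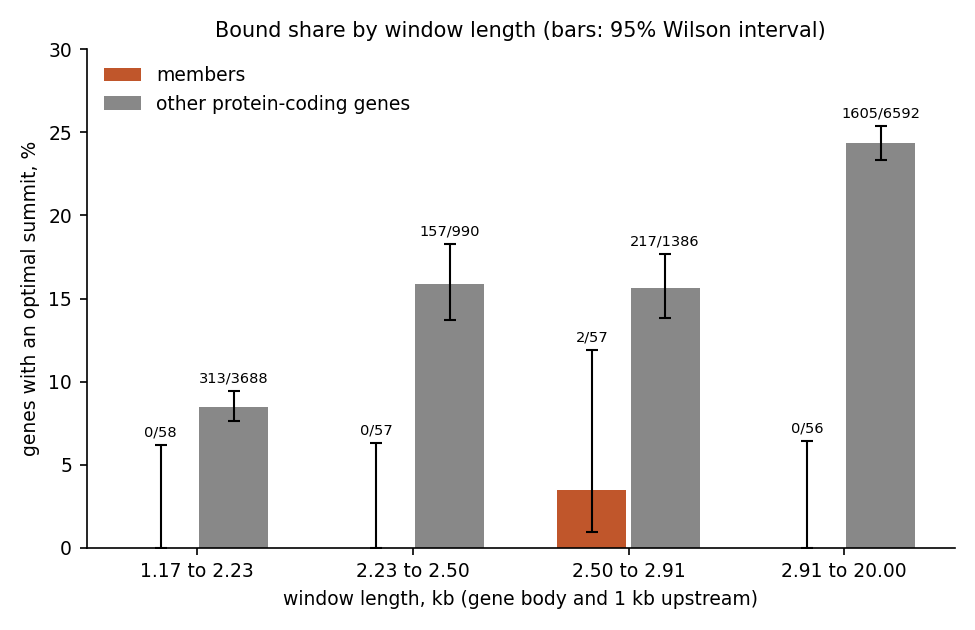
Share of genes with an optimal summit by window length in kb, for members (orange) and other protein-coding genes (grey), with bound and total genes above each bar and 95% Wilson intervals as error bars; windows over 20 kb are not drawn. Members were at 0% in 3 of the 4 classes, and in each of the 4 the members' interval ended below the lower end of the other genes' interval.

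The plot by window length shows members below other genes of like length in each class. The widest class on that plot is uneven in length, since the other genes in it include far longer windows than most members have.

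Counted in each replicate separately, with its 2743 highest-scoring peaks, members with a summit numbered 1 in replicate 1 (Ir60b), 2 in replicate 2 (Gr32a and Ir60b) and 1 in replicate 3 (Ir60e). This is 0.580% ± 0.251 of members (SD, n = 3), while the same lists gave 19.1, 19.9 and 19.3% of all protein-coding genes, 19.4% ± 0.426. The difference exceeded the spread between replicates many times over. The Ir family had 1 member in each list, but no gene was in all 3. Of the optimal peaks of members, that of Ir60b was matched in these lists of replicates 1 and 2, and that of Gr32a in replicate 2 alone, so neither was matched in all 3. In the highest 1371 peaks of each replicate there was no member. In the highest 5486 there were 10, 7 and 5 members, 3.19% ± 1.09 of members where all genes gave 30.1% ± 0.285. Gr32a, Ir60b, Obp99b and Or88a were in all 3 of these longer lists. In the whole replicate lists 66, 84 and 76 members had a summit, 32.8% ± 3.92 of members where all genes gave 64.0% ± 1.96.

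Over all members, 103 gene and summit pairs were found in the pooled list, from 98 distinct summits. Of the 98, 2 (2.04%) were optimal, where 9.14% of the whole pooled list was. Of these summits 15 were among the first 10000 ranks and 57 among the last 10000. By position, 45 pairs lay upstream of the gene, 31 in a coding exon, 10 in an untranslated exon and 17 in an intron. In 35 pairs the summit was within 500 bp of a start of the member alone, in 7 of both the member and another gene, in 10 of another gene alone and in 51 of neither. The nearest start was another gene's in 23 pairs (22.3%): 2 of 25 for Or, 9 of 22 for Gr, 8 of 36 for Ir and 4 of 20 for Obp. Some of these other genes were members of the same array, such as Gr22b for Gr22c and Obp56e for Obp56f. No matching share over all protein-coding genes is given for these positions, so they describe members alone. A peak overlapped the summit's peak in all 3 replicate lists for 15 pairs, in 2 lists for 28, in 1 list for 50 and in none for 10. The same shares over the whole pooled list, or over peaks of like rank, are not given, so these counts too describe members alone.

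Members also lay farther from optimal summits than other genes did. The median distance from an own TSS to the nearest optimal summit was 43142 bp for Or, 18207 bp for Gr, 27856 bp for Ir and 16762 bp for Obp genes, and 10719 bp for the other protein-coding genes. Within 10 kb there were 51 members (22.2%) and 48.1% of the other genes: 6 Or, 21 Gr, 14 Ir and 10 Obp genes. Within 2 kb there were 7 members (3.04%) and 21.1% of the others.

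**Figure D4:**
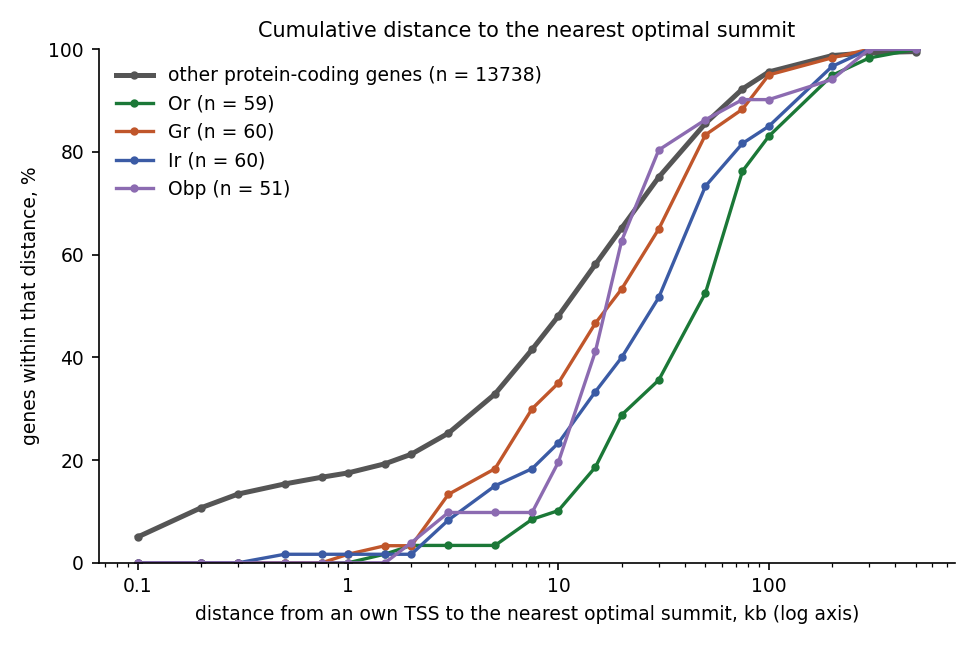
Cumulative share of genes with an optimal summit within a given distance of an own start, for each family and for the other protein-coding genes (distance in kb on a log axis). At 2 kb none of the 4 families exceeds 3.92% while the other genes reach 21.1%, and at 10 kb the Gr curve is the highest of the 4 families and the Or curve the lowest.

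On the cumulative plot the Obp curve meets that of the other genes between 20 and 30 kb, and from 5 to 100 kb the Or curve is the lowest. The 7 members within 2 kb were Ir60b, Gr32a, Or9a, 1040 bp from a summit at rank 1762, Gr89a (1390 bp, rank 1478), Obp56f (1660 bp, rank 1100), Obp84a (1905 bp, rank 2128) and Or85f (1918 bp, rank 701). At 5 of the 7 the summit was within 500 bp of a start of another gene: 20 bp from Neb-cGP at Or9a, 88 bp from CG1227 at Obp84a and 55 bp from CG34117 at Or85f, besides Letm1 and Idua. At Obp56f it was 979 bp from CG8517.

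Gr89a was the exception among the 7, with an intergenic summit whose nearest annotated protein-coding start was its own. This peak covered 3R:16497374-16497763. Gr89a is on the minus strand, and the summit lay downstream, 248 bp past the end of the gene. It was thus outside the window, so Gr89a was not counted as bound. In the Gr93 array a summit at rank 1322 also had a member's start as its nearest, that of Gr93d. This summit lay 2447 bp upstream of that start and was also the one nearest to Gr93b and Gr93c. Of the 51 members within 10 kb of an optimal summit, 36 had that summit within 500 bp of another gene's start, and for 5 the nearest start was a member's. Array members can share a summit: these were 39 distinct summits, 28 of them within 500 bp of another gene's start. The same shares for all protein-coding genes are not given here, for 10 kb or for 2 kb, so these counts describe members alone. Several well-studied receptors lay near high-ranking summits of a neighbour: Ir25a 2565 bp from a summit at rank 39 that was 134 bp from the start of tank, Gr61a 3766 bp from rank 386 near CG13901, Gr63a 2566 bp from rank 1041 near Ccz1 and Gr66a 2081 bp from rank 1363 near BI-1.

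The annotation placed 32 members inside the body of 31 other genes, and 10 of these hosts (32.3%) were themselves bound, with a median host window of 19590 bp. Of all protein-coding genes 19.7% were bound. Among genes outside the families the share was 24.3% for windows from 2907 to 20000 bp and 42.0% for longer ones. None of the members inside the hosts was bound. Gr94a lies in p53 and was 2428 bp from the host's summit at rank 1424. Ir48c lies in ths, which encodes a fibroblast growth factor of the embryonic mesoderm, 2343 bp from a summit at rank 590. Ir62a lies in Iml1, 3050 bp from a summit at rank 1986. Or85a lies in Poxm, a paired-box gene of the muscle lineage, 12525 bp from a summit at rank 1084. Gr47a and Ir47a share the host SLO2, Ir51b lies in row, Ir60a in nord, Obp73a in Cpr73D, and Or45a in both CG13739 and CG13954. For 41 members (17.8%) the nearest gene outside the families was bound, and for 22.9% of the other genes the nearest gene was.

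Members of 1 family whose bodies lay within 10 kb of each other formed 36 arrays with 110 members, and 120 members stood alone. Summits of an array were counted over its span and 1 kb to either side. Only 1 array had optimal summits, that of the Ir60 genes. There, besides the peak at Letm1, a peak at rank 2587 with a score of 95.4 had its summit 4 bp from the start of Brca2, a gene of recombination repair that lies among the Ir60 genes. The 3 largest arrays had 6 genes each: Ir7b to Ir7g had no pooled summit over 22029 bp, Gr64a to Gr64f had 1, and Obp56a to Obp56f had 10, the best at rank 8335. In all, 12 arrays had no pooled summit, and 30 array members and 46 single members had one. The Gr93 array held 9 pooled summits in its span and 1 kb to either side, the best at rank 5412, but none in a member's window.

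By chromosome arm, the share of members with a pooled summit ranged from 16.1% on X (5 of 31 members) to 51.5% on 2L (17 of 33), with 37.3% on 2R, 29.7% on 3L and 27.8% on 3R. The other genes ranged less over these arms, from 59.4% on 3R to 68.3% on 2R, with 61.0% on X. The 2 bound members were on 2L and 2R. Of the 7 pseudogenes outside the rule none had an optimal summit. Ir48a had a pooled summit at rank 9074 and Ir56e at rank 29176.

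The homeodomain cores were searched next, around member summits and in member promoters. Within 50 bp of the 98 member summits, 9 windows (9.18%, 4.91 to 16.5%) held TAATTA on either strand, beside 8.11% for all pooled summits and 10.8% for all optimal summits. The related core TAATTG, on either strand, was in 12 windows (12.2%), beside 10.8 and 11.3%. These member windows were 58.9% A or T (SD 9.10 over windows), beside 61.1% for pooled and 66.7% for optimal summits. Around summits the members' shares of both cores were thus close to those of the pooled list.

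In promoters, taken as 250 bases before to 50 after the annotated gene start, both cores had a higher share in members. TAATTA was in 97 of 230 member promoters, or 42.2% (35.97 to 48.6%), and in 20.05% (19.4 to 20.7%) of the other protein-coding promoters. The families ranged from 31.7% for Ir and 33.3% for Obp to 44.1% for Or and 58.3% for Gr. TAATTG was in 112 member promoters, or 48.7% (42.3 to 55.1%), and in 24.8% of the others, with 35.0% for Gr, 35.3% for Obp, 59.3% for Or and 63.3% for Ir. Base composition was alike, 60.3% A or T in members and 60.9% in the others. A match is a description of letters, not a binding site, and almost none of these promoters had an optimal summit.

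**Figure D5:**
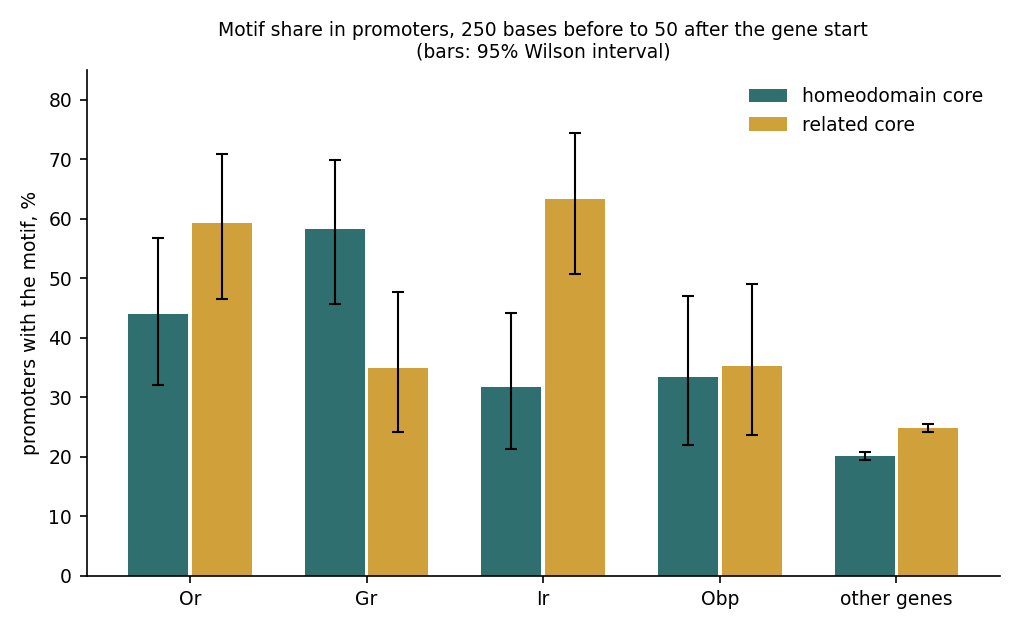
Share of promoters that hold the homeodomain core TAATTA and the related core TAATTG, on either strand, by family and for the other protein-coding genes, with 95% Wilson intervals as error bars. Gr promoters had the highest share of the first core (58.3%) and Ir promoters the highest of the second (63.3%).

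The bars for the 4 families differ in which core has the higher share: the first in Gr genes and the second in Or and Ir genes, while the Obp shares were close. Only in Ir genes were the intervals of the first and second core apart, at 21.3 to 44.2% and 50.7 to 74.4%. In Or, Gr and Obp genes they overlapped. Of the 230 promoters 68 (29.6%) held neither core and 77 (33.5%) held 2 or more matches, with 30 of the 59 Or promoters among these. For each family the promoter with the most matches is printed, among those off the right arm of chromosome 2 whose window holds no annotated untranslated region. They were chosen after the counts were known and are given on the strand of the gene, from the Release 6 genome. Capitals mark the cores as above, and overlapping matches run together. Or33a, an olfactory receptor also used by larvae, is from 2L:11934255-11934554 on the plus strand and has 6 matches. Gr28b, whose products are known for sensing heat and light, is from 2L:7462198-7462497 on the minus strand and has 3. Ir67a is from 3L:9543950-9544249 on the minus strand and has 3, and Obp85a is from 3R:8420548-8420847 on the minus strand and has 4.
Or33a: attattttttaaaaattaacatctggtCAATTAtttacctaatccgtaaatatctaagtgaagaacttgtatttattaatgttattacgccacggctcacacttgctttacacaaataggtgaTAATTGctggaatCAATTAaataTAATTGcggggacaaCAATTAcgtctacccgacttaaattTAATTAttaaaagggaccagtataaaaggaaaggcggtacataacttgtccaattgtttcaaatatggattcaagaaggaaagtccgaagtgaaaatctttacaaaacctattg
Gr28b: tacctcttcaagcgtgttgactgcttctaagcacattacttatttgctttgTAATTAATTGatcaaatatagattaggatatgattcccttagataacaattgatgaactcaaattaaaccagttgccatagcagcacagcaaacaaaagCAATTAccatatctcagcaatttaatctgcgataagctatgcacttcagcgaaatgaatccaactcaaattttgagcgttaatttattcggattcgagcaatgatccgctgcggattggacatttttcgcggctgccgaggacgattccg
Ir67a: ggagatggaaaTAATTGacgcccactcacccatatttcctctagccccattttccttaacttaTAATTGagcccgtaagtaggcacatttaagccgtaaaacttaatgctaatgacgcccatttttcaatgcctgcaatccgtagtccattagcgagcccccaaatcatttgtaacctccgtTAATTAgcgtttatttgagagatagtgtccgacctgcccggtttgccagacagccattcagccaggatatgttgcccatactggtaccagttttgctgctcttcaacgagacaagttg
Obp85a: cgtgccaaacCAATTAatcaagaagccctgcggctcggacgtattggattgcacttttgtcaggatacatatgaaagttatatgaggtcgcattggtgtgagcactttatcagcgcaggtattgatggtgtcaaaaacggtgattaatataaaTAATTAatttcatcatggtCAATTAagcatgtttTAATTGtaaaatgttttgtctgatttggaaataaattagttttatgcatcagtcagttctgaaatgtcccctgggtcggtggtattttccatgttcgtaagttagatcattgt

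Neither Gr28b, Or33a, Ir67a nor Obp85a was bound. The splits of the promoters that follow, by base composition, array and annotated 5′ UTR, were chosen after the shares above were known. The higher share of TAATTA in member promoters was present in each class of base composition: 23.5 against 9.58% of promoters with 50 to 55% A or T, 44.4 against 13.2% with 55 to 60%, 48.6 against 20.6% with 60 to 65%, and 48.9 against 28.8% with 65 to 70%, members first. With only 1 promoter taken from each array, 39.7% of 156 promoters held TAATTA and 55.1% held TAATTG. The annotated start itself differs in kind: a 5′ UTR was annotated for 94 of 230 members (40.9%) and for 97.3% of the other genes, so many member windows begin at the start codon and not at a mapped TSS. The same holds for the distances to an own TSS above. Among genes with an annotated 5′ UTR, TAATTA was in 35.1% of 94 member promoters and 19.9% of the others. Among genes without one it was in 47.1% of 136 and 27.0% of 366. Across all protein-coding genes, TAATTA was in 23.8% of the promoters with an optimal summit within 500 bp of an own TSS and in 19.8% of those without. For TAATTG the shares were 24.8 and 25.3%. The promoters with such a summit were also richer in A or T, at 62.8 beside 60.6%, and were not split by base composition.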

How the data were processed

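ChIP-seq peaks of 3 replicates were used as deposited by the authors. Per the deposited README files, peaks came from each replicate's alignment and from the pooled alignments, each with a control alignment, and the optimal list was derived from these lists. Which aligner and which peak caller were used is not given in the sources used here. Each peak's score, as the authors deposited it, has no stated scale and only ranked or described peaks inside each list. The −log10 q was taken as deposited, and the deposited summit offset (other) gave each summit. No file used holds read counts, so depth is unknown.

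Gene models were Ensembl release 115 (BDGP 6.54), sequence was the RefSeq Release 6 genome, and all coordinates are dm6 and 1-based. The dm3 lists were not used. Analyses used Python 3.11.15, pandas 2.3.3, numpy 2.4.6, scipy 1.17.1 and matplotlib 3.10.9. The assignment of summits to genes was tested on simulated data.

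Bound genes had an optimal summit in the body or the 1 kb upstream of it by strand. A summit was at a TSS within 500 bp. Shares have Wilson 95% intervals and replicate values mean ± SD. No group comparison exists in the design, and no test was made. The limit for a count of 0 is 3 counts of the total. Alternatives changed the list length, replicate support, window and overlap.

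The members and lists were chosen with earlier results of these data known. Named were all bound members, in each family the 4 best-ranked and the 3 with the longest windows, the 5 members just outside the optimal list, a set of well-known receptors, bound genes of the lists, and the nearest genes of optimal summits. Other members named (neighbours of summits, hosts, arrays, printed promoters) were chosen after their values were seen.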

Additional observations from a re-analysis of the deposited data

How the results depend on the processing

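The count of 2 bound members, Gr32a and Ir60b, was 0 with the 1371 highest-scoring optimal peaks, 0 with optimal peaks matched in all 3 replicates, 0 with the gene body alone and 1 with 500 bp upstream (Ir60b). It was 7 with the 5486 highest-scoring pooled peaks and 4 when the peak interval had to overlap by 1 bp (Ir31a and Or9a added). With peaks matched in both remaining replicates it was 0 to 1 as each replicate was left out, Ir60b when replicate 3 was left out. With 2 kb upstream it was 3. The share of all protein-coding genes bound, 19.7%, was 11.5% with these 1371 peaks, 30.8% with 5486 peaks, 13.03% with peaks in all 3 replicates, 14.3 to 15.3% without 1 replicate, 7.82% with the body alone, 18.6% with 500 bp and 21.6% with 2 kb upstream, 17.2% within 1 kb of a TSS, 20.7% with 1 bp of overlap and 31.1% among genes with a pooled summit. The 1 member bound away from other starts, or at its own (Ir60b), became 0 with these 1371 peaks, with all 3 replicates and with the body alone, 5 with 5486 peaks, 0 to 1 without 1 replicate, and stayed 1 with the distance to other starts at 250 or 1000 bp. With the distances to own and other starts changed together, an alternative chosen after seeing the data, it was 0 at 250 bp and 2 at 1000 bp. The count per replicate, 1.33 on average, was 0 with lists of 1371 peaks and 7.33 with 5486, and 1 to 1.5 without 1 replicate. Under every alternative run for the bound count and for the count per replicate, the members' share was below that of all protein-coding genes. For members bound away from other starts no share over all protein-coding genes is given, so that count and its alternatives describe members alone. Depth is unknown, so counts of 0 do not show that binding was absent. No paired analysis was possible because the 3 samples are replicates of 1 group.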

Other observations

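Of all 2080 6-base words, counted on both strands together, the related core TAATTG had the largest difference in share between member promoters and other protein-coding promoters, at 23.9 percentage points, and TAATTA the next largest, at 22.1. The word order was computed after the cores had been counted. Of the 36 words without G or C, 12 had a higher share in members, and the median difference was -3.35 points. TAATTG was in 58.8% of member promoters and 33.3% of other promoters without an annotated 5′ UTR, and in 34.04 and 24.6% of those with one. The cause of these differences was not tested.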
